A study of Mus musculus with 3 samples.

Results

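The integrins, laminins and basement membrane genes of mouse ALSCs were 46 protein-coding genes out of 55421 named genes, of which 21926 were protein-coding. They were chosen by name. The rule took every gene of the integrin α, integrin β and laminin α, β and γ families, and it added *Fn1*, *Vtn*, *Nid1*, *Nid2*, *Hspg2*, *Agrn*, *Dag1*, *Col4a1* and *Col4a2*. This gave 18 integrin α subunits, 8 integrin β subunits, 11 laminin chains and 9 other genes. The rule itself uses names and no measured value.

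ALSCs are primed pluripotent stem cells that were derived from the epiblast of E6.5 embryos of ICR females mated with GOF/GFP males, which carry an Oct4ΔPE-GFP reporter. All 3 libraries (replicates 1, 2 and 3) came from ALSCs kept in serum-free N2B27 medium with Activin A and LIF (AL medium) on dishes coated with fibronectin. RNA was sequenced and the reads on each gene were counted. The libraries share 1 condition, so no comparison between conditions was made, and the labels do not say whether they came from separate cultures or lines. The study describes its RNA-seq replicates as biological.

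Integrins are receptors of 1 α and 1 β subunit that span the cell membrane and tie the cytoskeleton to proteins outside the cell. A basement membrane is a thin sheet of matrix under epithelia, built on a network of laminin trimers (1 α, 1 β and 1 γ chain) and a network of type IV collagen, which nidogens, perlecan and agrin connect. In the early mouse embryo, the epiblast rests on such a sheet and binds laminin through β1 integrins. Dystroglycan, which *Dag1* encodes, is a further laminin receptor.

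Summed over named genes, replicate 1 held 18088505 counts, replicate 2 held 18724038 and replicate 3 held 18037342. FPKM (the count divided by gene length and by this sum, in the usual units) was used wherever genes are compared with each other, and a gene was taken as expressed at 1 FPKM or more in all 3 libraries. A count of 0 allows up to 3 counts, so a gene at or under 3 counts was taken as not detectable at this depth. These limits cover counting error only. The cells carried the markers of their label, since 7 of 7 pluripotent epiblast markers were expressed, with *Pou5f1* at 676, 629 and 638 FPKM. Of the markers of other cell types, 0 of 11 for primitive and parietal endoderm, 0 of 6 for leukocytes and 0 of 4 for megakaryocytes and platelets were expressed. For fibroblasts this held for 2 of 7, *Thy1* and *Col1a1*, while *Dcn* and *Lum* had no count. For endothelium it held for 1 of 5, *Egfl7*. The summed level of the endoderm list was 2.97, 2.75 and 2.20 FPKM and that of the fibroblast list was 11.4, 12.9 and 12.2 FPKM.

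Of the 46 genes, 19 (41.3%) were expressed, against 10023 (45.7%) of all 21926 protein-coding genes. The 19 were 4 of 18 integrin α subunits, 2 of 8 integrin β subunits, 5 of 11 laminin chains and 8 of the 9 other genes. A further 16 genes were above 3 counts in every library but below 1 FPKM in at least 1, 5 were above 3 counts in some libraries only, and 6 were at or under 3 counts in all. Together the 46 genes drew 0.163% of the reads counted in the first library, 0.270% in the second and 0.242% in the third. In RNA from whole cultures, fewer cells of a type and less RNA per cell cannot be told apart.

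Sequences around 4 start sites are shown because they cover both ends of the levels described below. *Itgb1* was the highest of the 46 genes, and *Lama5* was the leading laminin α chain. *Lama2*, a laminin α chain of muscle and nerve, had no count. *Col4a1* and *Col4a2* encode the chains of the common type IV collagen and lie head to head on chromosome 8, with starts 21 bases apart (11312826 and 11312805) on opposite strands, so that their windows share 78 bases. Each window runs from 250 bases before to 50 bases after a RefSeq start on GRCm38.p6, and is written 5′ to 3′ on the gene's own strand. The RefSeq start of *Lama2*, 27616942, lies inside the annotated gene, which on the minus strand begins at 27619758. Positions are chr8:11312777-11313076 (minus strand) for *Col4a1*, chr8:128685404-128685703 (plus) for *Itgb1*, chr2:180225810-180226109 (minus) for *Lama5* and chr10:27616893-27617192 (minus) for *Lama2*. Capitals mark every CpG dinucleotide.
Col4a1: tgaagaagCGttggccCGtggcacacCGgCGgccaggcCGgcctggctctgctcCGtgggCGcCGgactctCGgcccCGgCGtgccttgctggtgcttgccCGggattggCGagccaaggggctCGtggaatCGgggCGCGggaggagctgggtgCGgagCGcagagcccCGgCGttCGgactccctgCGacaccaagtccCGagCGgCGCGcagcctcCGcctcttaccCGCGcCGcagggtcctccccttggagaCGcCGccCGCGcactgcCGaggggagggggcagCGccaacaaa
Itgb1: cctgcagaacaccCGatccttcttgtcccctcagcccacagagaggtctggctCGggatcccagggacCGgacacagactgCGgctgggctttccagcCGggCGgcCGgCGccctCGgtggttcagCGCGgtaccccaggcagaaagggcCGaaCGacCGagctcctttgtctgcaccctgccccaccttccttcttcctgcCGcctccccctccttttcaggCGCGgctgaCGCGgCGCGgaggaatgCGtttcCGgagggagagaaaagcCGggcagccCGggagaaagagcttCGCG
Lama5: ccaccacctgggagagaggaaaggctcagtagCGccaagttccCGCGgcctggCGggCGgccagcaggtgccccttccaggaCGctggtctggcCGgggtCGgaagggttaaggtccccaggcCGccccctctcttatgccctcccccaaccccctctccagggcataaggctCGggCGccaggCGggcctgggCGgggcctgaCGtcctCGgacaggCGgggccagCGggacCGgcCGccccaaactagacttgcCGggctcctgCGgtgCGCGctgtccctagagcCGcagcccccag
Lama2: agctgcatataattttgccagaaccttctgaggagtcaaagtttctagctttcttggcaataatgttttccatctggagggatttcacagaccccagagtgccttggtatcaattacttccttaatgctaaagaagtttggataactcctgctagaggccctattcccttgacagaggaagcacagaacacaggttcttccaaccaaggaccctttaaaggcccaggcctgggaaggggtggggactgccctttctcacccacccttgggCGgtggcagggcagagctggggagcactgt
The *Col4a1*, *Itgb1*, *Lama5* and *Lama2* windows hold 37, 27, 24 and 1 CpG.

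RefSeq windows were at hand for 30 of the 46 genes, 35 windows in all. Some starts lie inside the annotated gene, as in *Itga9* (118711692, gene from 118606690) and *Lamb3* (193301994, gene from 193207699), which were not expressed. Among expressed genes, a start of *Agrn* and a start of *Itga3* lay furthest inside. The other start of *Itga3*, a start of *Dag1* and those of *Lamb2*, *Lamb1*, *Nid1* and *Hspg2* lay a short way inside. Which start the cells used was not tested. In the 17 windows of 14 expressed genes the median was 24 CpG (4 to 47), and in the 18 windows of 16 genes that were not expressed it was 7.5 (1 to 23). In the whole table of windows, the median was 21 for all expressed protein-coding genes and 3 for those at or under 3 counts. The letters GGGCGG, the GC box bound by SP factors, were found on either strand in 16 of the 17 windows (94.1%) of expressed genes and in 4 of the 18 (22.2%) others. The share was 66.3% for all expressed protein-coding genes, 14.7% for those at or under 3 counts and 35.7% for all 32851 windows. The one expressed window without these letters belonged to *Lamb2*, which had 4 CpG and a mean level of 5.98 FPKM. TATAAA was found in 0 of the 17 windows and, among the 18, in the window of *Vtn* alone. The share was 6.27% for expressed protein-coding genes, 24.2% for those at or under 3 counts and 13.6% for all windows. CCAAT was found in 7 of the 17 and 2 of the 18, against 38.3% for expressed protein-coding genes and 37.4% for all windows. None of the 3 motifs contains another, and a match describes the sequence and is no evidence of binding. GGGCGG itself holds a CpG, so the GC box and CpG counts are not separate observations. The windows of *Dag1* overlap each other, as do those of *Lamb3* and those of *Col4a1* and *Col4a2*, so the windows are not independent.

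**Figure D1:**
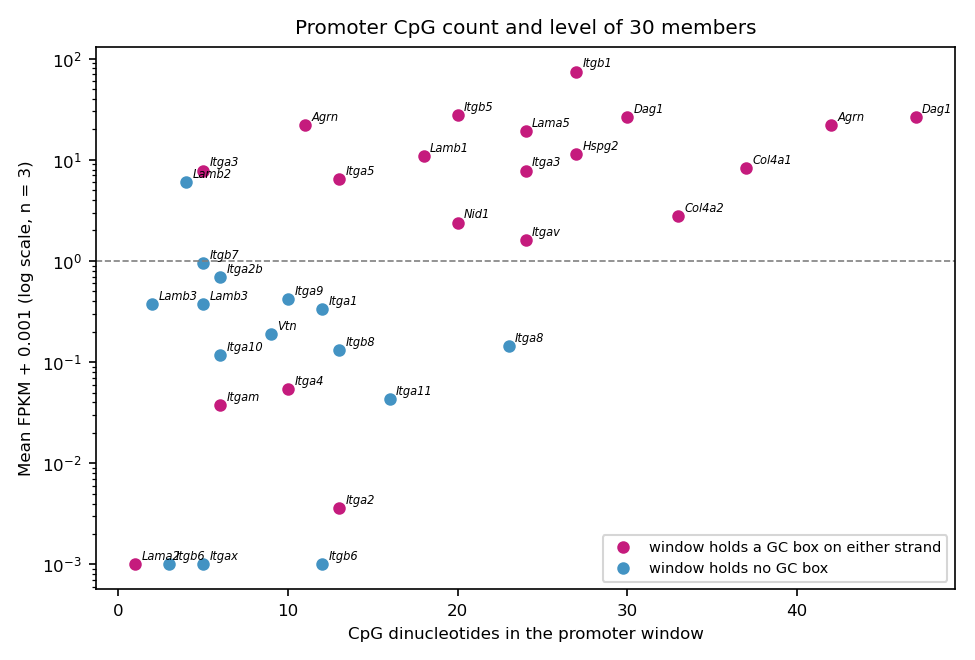
Mean FPKM + 0.001 of 3 libraries (log scale) against the number of CpG in the RefSeq promoter window, 1 point per window for 30 genes, coloured by whether the window holds a GC box; the dashed line marks 1 FPKM. Every window with more than 23 CpG belongs to a gene above the line, while *Lamb2* and 1 window of *Itga3* lie above it with 4 and 5 CpG.

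Among the integrin β subunits, *Itgb1* and *Itgb5* were expressed. *Itgb1* (ENSMUSG00000025809, chr8:128685654-128733200 on GRCm38) encodes β1, the shared partner of most matrix-binding α subunits, and stood at 69.1, 78.3 and 75.4 FPKM (mean ± SD, 74.3 ± 4.70). All 3 of its libraries were above the highest library of any other member. *Itgb5* encodes β5, which pairs with αv and binds vitronectin, and stood at 25.1, 29.2 and 28.2 FPKM (27.5 ± 2.17). *Itgb1* was thus 2.70 ± 0.0464 times *Itgb5* (SD over 3 libraries), the steadiest ratio of those computed. *Itgb7*, the β subunit of gut-homing lymphocyte integrins, reached 0.778, 1.12 and 0.981 FPKM and lay around the threshold. *Itgb4*, the β subunit of hemidesmosomes, was at 0.242 ± 0.0530 FPKM and *Itgb8*, an activator of TGFβ with αv, at 0.130 ± 0.00860. *Itgb2*, the leukocyte β subunit, had 7, 4 and 3 counts. *Itgb3*, the platelet and vascular β subunit, had 2, 4 and 0 counts, and *Itgb6*, the epithelial β subunit, had none.

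Of the integrin α subunits, 4 were expressed. *Itga6*, whose product α6 binds laminin, was the highest at 17.0, 26.3 and 24.0 FPKM (22.4 ± 4.83). *Itga3*, also a laminin receptor subunit, stood at 6.36, 8.89 and 8.19 FPKM (7.82 ± 1.31). These 2 were followed by the subunits that bind the RGD motif of fibronectin. *Itga5*, the main fibronectin receptor subunit, stood at 5.84, 7.25 and 6.38 FPKM (6.49 ± 0.714), so its range overlapped that of *Itga3*. *Itgav*, the αv subunit, stood at 1.19, 1.96 and 1.64 FPKM (1.59 ± 0.387) and did not overlap with *Itga5*. The laminin-binding subunits (*Itga3*, *Itga6* and *Itga7*) summed to 3.75 ± 0.342 times the fibronectin-binding subunits (*Itga5* and *Itgav*), and *Itga6* alone was 3.43 ± 0.451 times *Itga5*. These ratios grew to 5.84 and 6.47 when the length of the longest coding transcript replaced the table's gene length, a choice made after seeing the data.

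The other 14 α subunits were below 1 FPKM. Above 3 counts in every library were *Itga2b* (platelet αIIb, 0.690 FPKM), *Itgae* (lymphocyte αE, 0.596 FPKM), *Itga9* (0.421), *Itga1* (a collagen receptor, 0.334), *Itga7* (a laminin receptor of muscle, 0.192), *Itga8* (0.144), *Itga10* (a collagen receptor of cartilage, 0.115) and *Itga4* (a receptor for fibronectin and VCAM1, 0.0532). *Itga2b* marks the megakaryocyte line, of which *Pf4*, *Gp9* and *Ppbp* had no count and *Gp1ba* had 8, 7 and 11. *Itgae* and *Itgb7* together form a lymphocyte integrin, and the pan-leukocyte gene *Ptprc* had 0, 2 and 0 counts. *Itga11*, *Itgal* and *Itgam* passed 3 counts in some libraries only. *Itga2*, with 1 count in all, and *Itgad* and *Itgax*, with none, were not detectable. Of the exon bases of *Itgam* 68.7% overlap another gene on the same strand, and of those of *Itga10* 33.5%. Use of strand in the counting would not resolve these overlaps, so both levels are uncertain.

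**Figure D2:**
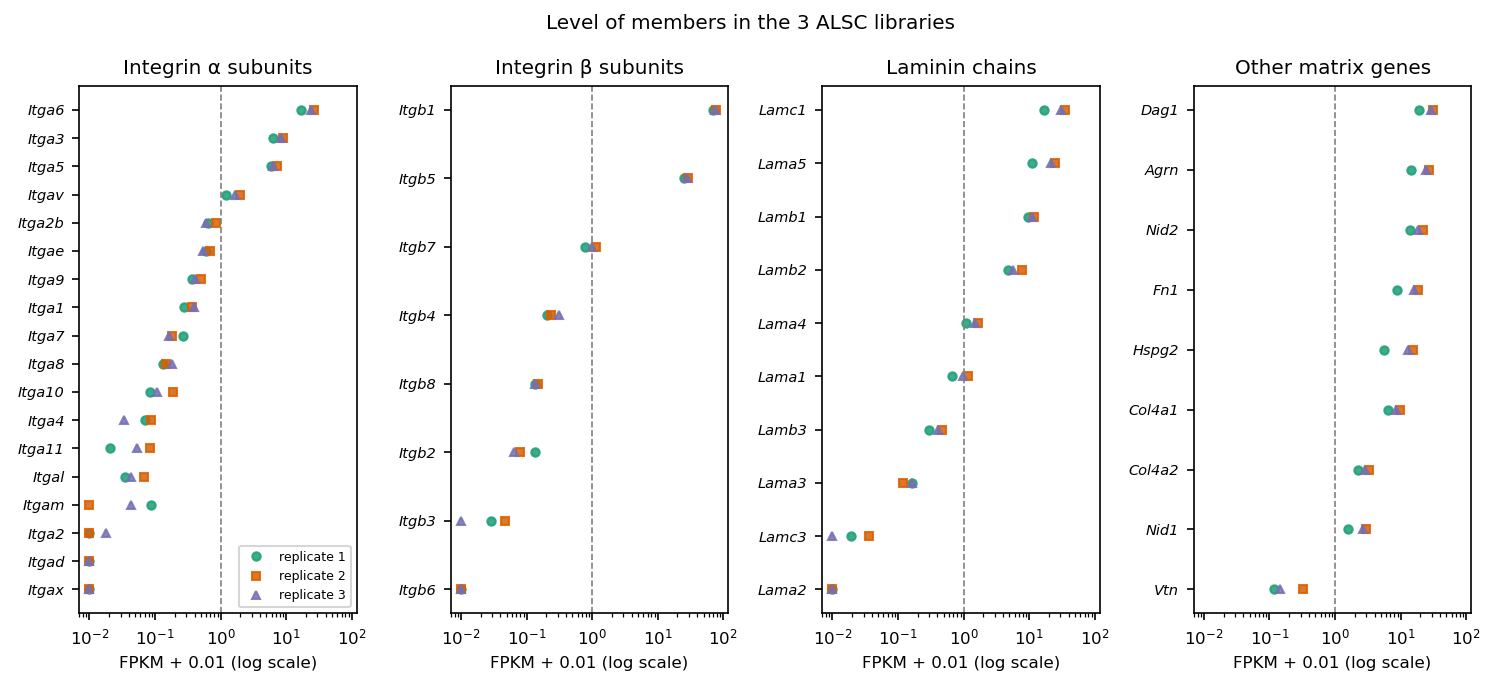
FPKM + 0.01 (log scale) of 45 of the 46 genes in replicate 1 (circles), replicate 2 (squares) and replicate 3 (triangles), ordered by mean level within each family; the dashed line marks 1 FPKM and points at 0.01 are genes without a count. *Itgb1* leads at 69.1 to 78.3 FPKM, and of the 9 other matrix genes *Vtn* alone lies below the line in every library.

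The pairing of subunits was then read from 24 known integrin heterodimers. Both subunits were expressed for 5 of them, namely α3β1, α5β1, α6β1, αvβ1 and αvβ5. In 10 more, both subunits were above 3 counts in every library but at least 1 was below 1 FPKM. In the remaining 9, a subunit was at or under 3 counts in at least 1 library, which included αvβ3 and αIIbβ3 (through *Itgb3*), αvβ6 (through *Itgb6*), α2β1 and the 4 leukocyte integrins of β2. For αIIbβ3 the level of *Itga2b* was 37.7 times that of *Itgb3*, from so few counts that the ratio is imprecise. For αEβ7 the levels of the partners were close, with *Itgb7* at 1.61 times *Itgae*.

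The summed level of the β1-binding α subunits was below that of *Itgb1* in every library, at 0.531 ± 0.0668 of it. With transcript length the ratio was 0.856, and on raw counts, which favour long genes, it was 1.03. The shortfall therefore depends on which length is assigned to the α genes. *Itgb5* was 17.8 ± 3.12 times *Itgav*, its sole known α partner, and 12.6 times with transcript length, so it exceeded its partner on each scale tried. RNA levels do not give the amount of either protein.

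**Figure D3:**
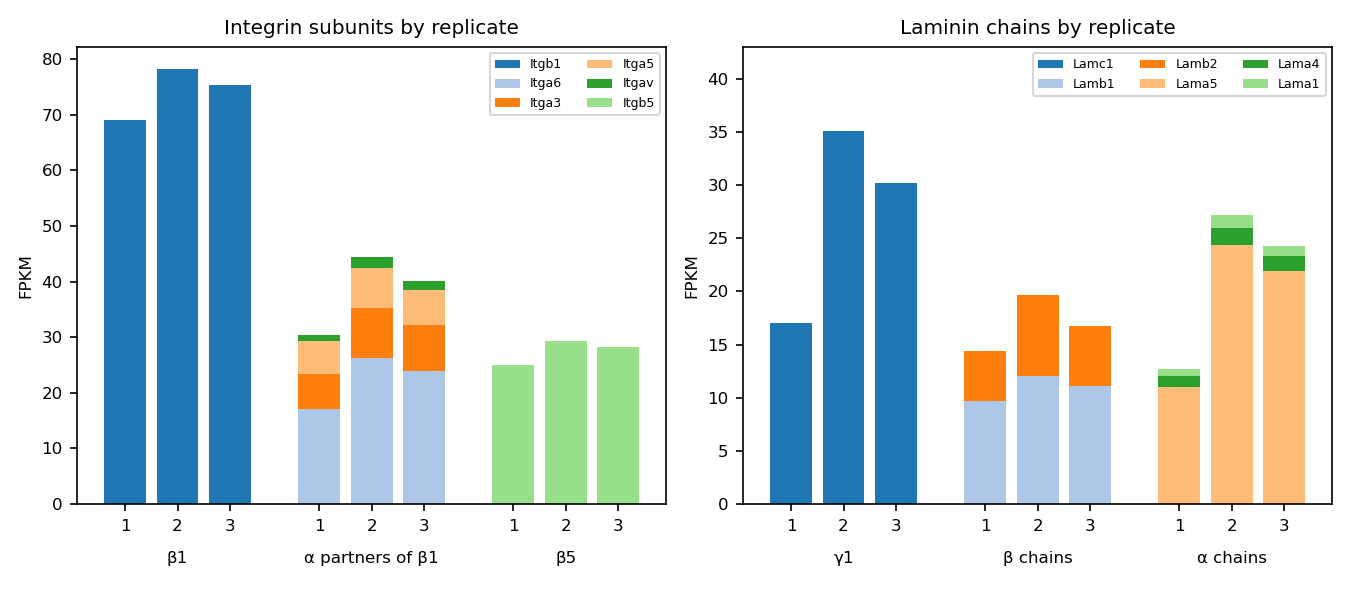
FPKM of integrin subunits (left) and laminin chains (right) in replicates 1, 2 and 3, with the genes of a class stacked (for α integrins the 4 expressed subunits); bars start at 0 and stand for single libraries. The α stack is below the *Itgb1* bar in every library, *Itga6* is the largest part of the α stack, and *Lama5* makes up most of the laminin α stack.

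Among the laminins, the expressed chains were *Lamc1*, *Lama5*, *Lamb1*, *Lamb2* and *Lama4*. *Lamc1* encodes γ1, which most laminins contain, and stood at 17.1, 35.1 and 30.2 FPKM (27.5 ± 9.33). *Lama5* (ENSMUSG00000015647, chr2:180176373-180225859) encodes α5, the main laminin α chain of epithelial basement membranes, and stood at 11.0, 24.3 and 21.9 FPKM (19.1 ± 7.11). In both genes replicate 1 was far below replicates 2 and 3, which also differed from each other, as described below. *Lamb1*, the common β chain, stood at 9.68, 12.0 and 11.1 FPKM (10.9 ± 1.19), and *Lamb2*, the β chain of kidney and synapse, at 4.68, 7.63 and 5.62 FPKM (5.98 ± 1.51). *Lamb1* was 1.88 ± 0.262 times *Lamb2* and their ranges did not overlap. *Lama4*, the α chain of blood vessels, stood at 1.09, 1.65 and 1.47 FPKM (1.40 ± 0.284).

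*Lama1*, the α chain of the embryonic laminin α1β1γ1, lay just around the threshold, at 0.645, 1.16 and 0.962 FPKM, and *Lama5* was 20.2 ± 2.92 times as high. The chains *Lamb3* and *Lama3*, known from the basement membrane of the epidermis, were low, at 0.377 and 0.139 FPKM. *Lama2* had no count and *Lamc3* had 1, 3 and 0. Of 14 known laminin trimers, all 3 chains were expressed for α5β1γ1, α5β2γ1, α4β1γ1 and α4β2γ1. A further 5 trimers had every chain above 3 counts and 5 had a chain at or under that limit. Within the α5β1γ1 set, the level of the highest chain, *Lamc1*, was 2.51 times that of the lowest, *Lamb1*. The α chains summed to 0.780 ± 0.0276 of *Lamc1* and the β chains *Lamb1* and *Lamb2* to 0.652 ± 0.164. The first ratio was 0.768 and the second 0.898 with transcript length, while raw counts gave 1.07 and 0.677.

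The other matrix genes were expressed with 1 exception. *Dag1* (dystroglycan) stood at 18.9, 31.2 and 29.2 FPKM (26.4 ± 6.58), and *Agrn* (agrin, a heparan sulfate proteoglycan that binds dystroglycan) at 14.5, 26.8 and 24.5 FPKM (21.9 ± 6.54). *Hspg2* (ENSMUSG00000028763, chr4:137468769-137570630; perlecan, the large heparan sulfate proteoglycan of basement membranes) stood at 5.61, 15.5 and 13.1 FPKM (11.4 ± 5.15). Replicate 1 was lowest and replicate 2 highest in these 3 genes, as in all 19 expressed genes. *Nid2* and *Nid1* encode nidogens, which bridge laminin and type IV collagen. *Nid2* stood at 13.9, 21.6 and 18.7 FPKM (18.1 ± 3.87) and *Nid1* at 1.55, 2.98 and 2.64 FPKM (2.39 ± 0.748), so that *Nid2* was 7.75 ± 1.05 times *Nid1*.

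*Fn1* (fibronectin, the ligand of α5β1) stood at 8.87, 18.7 and 16.2 FPKM (14.6 ± 5.09). The cells therefore held fibronectin RNA of their own, besides the fibronectin coat of the dishes. *Vtn* (vitronectin, the ligand of αv integrins) had 4, 12 and 5 counts, or 0.187 ± 0.112 FPKM. *Col4a1* and *Col4a2*, whose products join as 2 α1 chains and 1 α2 chain, stood at 6.30, 9.88 and 8.46 FPKM (8.21 ± 1.81) and at 2.25, 3.24 and 2.85 FPKM (2.78 ± 0.498). With starts 21 bases apart, as shown above, *Col4a1* was 2.94 ± 0.128 times *Col4a2*, and 3.24 times with transcript length. The lowest library of *Col4a1* was above the highest of *Col4a2*.

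Ordered by mean FPKM, the 19 expressed genes form 18 neighbouring pairs, and the ranges of the 3 libraries overlapped in 16 of them. Only *Itgb1* and *Itgb5*, and *Lamb2* and *Col4a2*, were apart from the next gene. In 9 of these 16 the first gene was nevertheless higher in 3 of 3 libraries, as for *Dag1* over *Itga6*. In the rest of the 16 the order differed between libraries. These were *Itgb5* and *Lamc1*, *Lamc1* and *Dag1*, *Itga6* and *Agrn*, *Lama5* and *Nid2*, *Hspg2* and *Lamb1*, *Col4a1* and *Itga3*, and *Itga5* and *Lamb2*. Among all genes at 1 FPKM, 92.8% were below *Itgb1* and 2.62% below *Lama4*.

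The libraries differed from each other in these genes. All 19 expressed genes were lowest in replicate 1 and highest in replicate 2, both in FPKM and after scaling with TMM factors (0.968, 1.02 and 1.01). On the TMM scale 40.2% of all genes at 1 FPKM were lowest in replicate 1 and 29.1% highest in replicate 2. In FPKM these shares were 48.1% and 37.8%. The median coefficient of variation was 22.0% for the 19 genes and 10.8% for all genes at 1 FPKM, and without replicate 1 it was 8.58% and 4.09%.

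Whether counts varied by more than counting error was asked with a chi-square test on each gene, using TMM library sizes, adjusted over 16944 genes by the Benjamini-Hochberg method. The p-values measure only the spread between these libraries, which may in part be technical. Of all genes tested, 47.2% varied at an adjusted p under 0.05, and 23.5% did so with replicate 1 below the mean of replicates 2 and 3. Of the 39 members tested, 21 (53.8%) varied, 20 of them (51.3%) with replicate 1 lower. These 20 were the 19 expressed genes and *Lama1*. Among all genes at 1 FPKM, 60.6% varied and 28.2% did so with replicate 1 lower. The opposite direction, found in 23.7% of all genes, was seen in *Itgam* alone, with 7, 0 and 3 counts (adjusted p = 0.039).

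The size of the difference was given as the log2 ratio of replicate 1 to the mean of replicates 2 and 3 on the TMM scale. Among the 19 expressed genes it was largest in the proteoglycan *Hspg2* (-1.27, adjusted p = 2.49e-239) and the laminin chain *Lama5* (-1.0, adjusted p = 9.63e-205), the only 2 of the 19 at least 2-fold lower, as against 99 (0.890%) of all genes at 1 FPKM. *Fn1* (-0.90, adjusted p = 1.88e-139), *Lamc1* (-0.86, adjusted p = 6.12e-175), *Nid1* (-0.78), *Agrn* (-0.75, adjusted p = 6.3e-118) and *Dag1* (-0.60, adjusted p = 1.03e-64) came next. These are ligands and matrix proteins, apart from *Dag1*. The 6 expressed integrin subunits lay nearer to 0, with *Itgav* at -0.52, *Itga6* at -0.49, *Itga3* at -0.35, *Itga5* at -0.15 (adjusted p = 0.0349), *Itgb5* at -0.13 (adjusted p = 0.0246) and *Itgb1* at -0.08 (adjusted p = 0.0034). The other expressed matrix genes lay in the same range, from -0.47 in *Col4a1* to -0.19 in *Lamb1*. The median over the 39 genes was -0.38 and over all genes tested 0.01. Below 1 FPKM, *Lama1* was at -0.64. *Itga11* (1, 7 and 4 counts) and *Itgam* (7, 0 and 3 counts) had ratios of larger size, which depend on the 0.5 counts added to each. The ratios between subunits moved with this. The laminin β chains made up 0.652 ± 0.164 of *Lamc1* over 3 libraries but 0.557 without replicate 1.

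Replicate 1 also differed by gene length, which moves with the result. Over all genes whose mean reached 100 counts, the median log2 ratio was 0.39 in the shortest of 20 groups (median length 685 bases) and -0.53 in the longest (15642 bases). The members were long, with a median of 7464 bases for the 19 expressed genes against 4070 bases for all genes at 1 FPKM. With the length trend removed, the median ratio of the 39 genes was -0.20, and 18 of the 19 expressed genes stayed below 0. Of the 39 genes, 19 varied (15 with replicate 1 lower), against 38.5% of all genes (19.8% with replicate 1 lower). With trends on both length and GC content removed, an alternative chosen after seeing the data, the median was -0.17. On that scale 17 genes varied (14 lower), against 37.8% of all genes (19.5% lower). *Hspg2* was then at -0.69, *Lama5* at -0.57, *Nid1* at -0.56, *Lamc1* at -0.55 and *Fn1* at -0.47. *Itgb1* moved away from 0, to -0.17 (adjusted p = 2.42e-11), and *Itgb5* to -0.14 (adjusted p = 0.0136). The 4 expressed integrin α subunits moved towards 0. *Lamb1* turned to 0.16 and still passed the test (adjusted p = 0.000881), now with replicate 1 higher. The others that passed with replicate 1 higher were *Itga7* (1.05, adjusted p = 0.00983) and *Itgam* (2.68, adjusted p = 0.0378), both of few counts. *Itga3*, *Itga5*, *Col4a2*, *Lama4* and *Lama1* no longer passed the test (adjusted p = 0.0933, 0.419, 0.402, 0.733 and 0.106). What part gene length has in the difference was not tested.

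**Figure D4:**
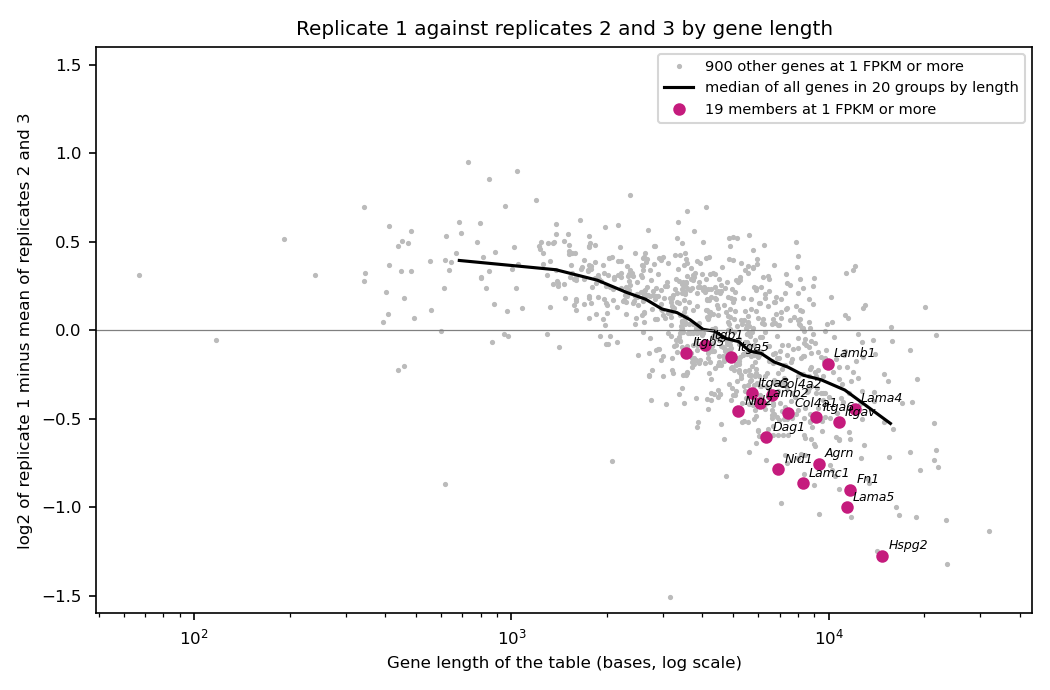
log2 ratio of replicate 1 to the mean of replicates 2 and 3 (TMM scale) against the gene length of the table in bases (log scale), for the 19 expressed members (large points) and 900 random genes at 1 FPKM (small points); the line joins the medians of 20 groups of genes. The line falls from 0.39 to -0.53, and *Hspg2*, *Lama5*, *Fn1* and *Lamc1* lie below it while *Lamb1* lies above.

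**Figure D5:**
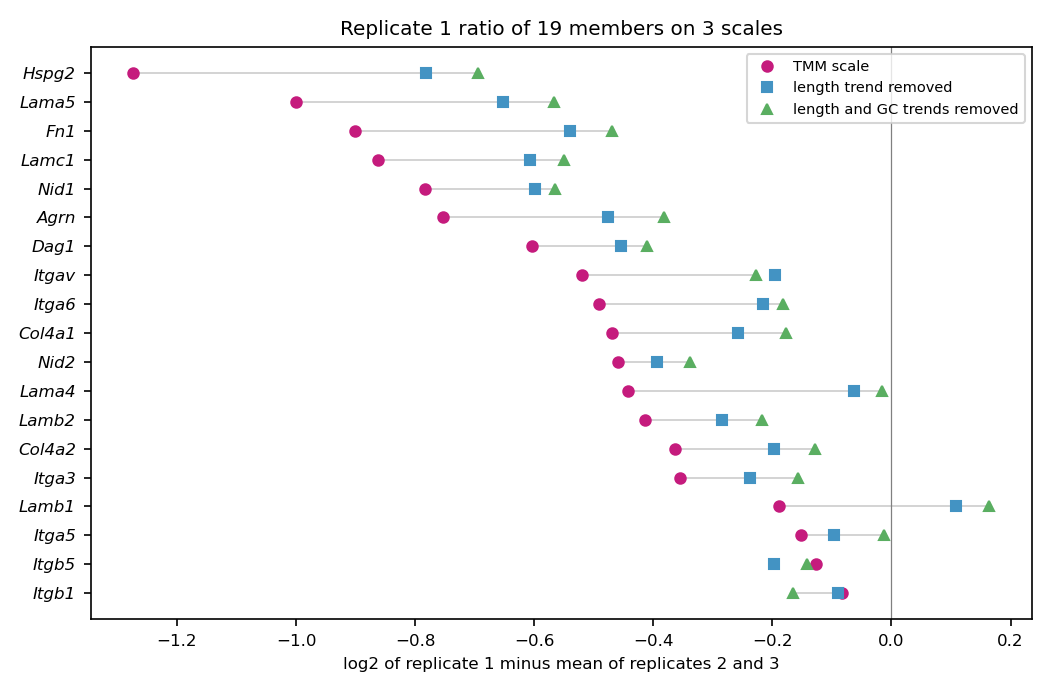
log2 ratio of replicate 1 to the mean of replicates 2 and 3 for the 19 expressed members on the TMM scale (circles), with the length trend removed (squares) and with length and GC trends removed (triangles). *Hspg2* moves from -1.27 to -0.69, and *Lamb1* is the only gene above 0 after removal.

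Without replicate 1, which stands apart from the other two, 9 of 37 members tested still varied between replicates 2 and 3, against 8.11% of all genes. They were *Agrn*, *Col4a1*, *Fn1*, *Hspg2*, *Itga6*, *Lama5*, *Lamb2*, *Lamc1* and *Nid2*, all expressed and all lower in replicate 3 than in replicate 2. Of these 9, 8 encode matrix proteins and 1 encodes an integrin subunit. The 19 expressed genes were themselves mostly not integrins, with 5 laminin chains and 8 other genes beside 4 integrin α and 2 integrin β subunits. The 8.11% covers all genes tested, including those of few counts, and the share among genes at 1 FPKM was not computed for this comparison. Without replicate 1 the mean level of *Hspg2* was 14.3 FPKM in place of 11.4 and that of *Lama5* 23.1 in place of 19.1.

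The machinery around these receptors was read from 4 lists. Of 30 genes of integrin activation and the adhesion plaque, 22 were expressed, led by *Actn4* (α-actinin, which links integrins to actin) and *Flna* (filamin A), at 42.1, 79.9 and 75.7 FPKM in *Flna*. The integrin activators *Tln1* (talin) and *Fermt2* (kindlin) stood at 8.61, 14.0 and 13.8 FPKM and at 14.6, 17.5 and 17.0 FPKM. Of 28 tested, 16 varied, 13 with replicate 1 lower and 3 with it higher (median log2 ratio -0.19). The share that varied was 47.2% of all genes tested and 60.6% of those at 1 FPKM. *Ilk*, the integrin-linked kinase, was at 0.262, 0.428 and 0.465 FPKM, but 89.7% of its exon bases overlap *Rrp8* or *Taf10* on the opposite strand, so without the counting's use of strand its level is uncertain.

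Of 25 other basement membrane genes and integrin ligands, 9 were expressed, with *Sparc* (a collagen-binding matrix protein, 45.8, 47.6 and 43.2 FPKM) and *Spp1* (osteopontin, an RGD ligand, 19.2, 14.2 and 18.3 FPKM) the highest. *Col18a1*, a basement membrane collagen, was expressed, while *Col4a3* had no count. Of 21 tested, 14 varied (against the same 47.2%), 11 with replicate 1 lower and 3 with it higher (median -0.32). Of 20 matrix processing genes, 16 were expressed, led by *P4hb* (a subunit of prolyl 4-hydroxylase, 235, 224 and 214 FPKM) and *Serpinh1* (the collagen chaperone HSP47, 106, 112 and 119 FPKM). Of 17 tested, 12 varied, again against 47.2%, 8 lower and 4 higher in replicate 1 (median -0.09). Of 12 genes that put the laminin-binding sugar on dystroglycan, 10 were expressed, and 5 of 11 tested varied, 4 lower and 1 higher (median -0.13), a share near the 47.2% of all genes. *B4gat1* of this list had 2, 1 and 2 counts, with 85.3% of its exon bases shared with another gene. These counts and medians stand before the trends were removed, when 60.6% of all genes at 1 FPKM varied. Over all genes tested, 23.5% varied with replicate 1 lower and 23.7% with it higher. With length and GC trends removed, the medians were -0.11 for the adhesion plaque, -0.10 for the other ligands, -0.06 for matrix processing and 0.01 for dystroglycan glycosylation. In the same order, 15 of 28, 9 of 21, 8 of 17 and 3 of 11 genes tested varied, against 37.8% of all genes.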

How the data were processed

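RNA-seq of 3 ALSC libraries was analysed. The authors deposited raw counts per gene in 1 table with gene positions and lengths on GRCm38, without normalization. The submitters' processing notes name HISAT2 2.0.5. The counting program and its use of strand are not given in the sources used here. The table's 3 other columns of counts match no sample of this series and were not used. Of 55738 rows, 317 carry no gene name and were left out, with 0.165%, 0.182% and 0.182% of the counts.

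FPKM was computed from counts, the table's gene length and the total on named genes. The table's length was within 1% of the union of GENCODE M21 exons for 54886 of 55240 genes. Libraries were scaled with TMM factors from edgeR 4.0.16 (R 4.3.3), with DESeq2 1.42.0 size factors as an alternative. Variation was tested by chi-square on genes with at least 10 counts in total, which allows for counting error only, with SciPy 1.17.1, NumPy 2.4.6, pandas 2.3.3, matplotlib 3.10.9 and Python 3.11.15. The log2 ratio used 0.5 added counts. Trends were medians in 20 groups of genes. The test was tested on simulated data.

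Of the 46 members, 45 are named and 1 is not reported here, and those at 1 FPKM or more have a value for every library. From the 4 lists the text names the highest genes, those with overlaps, and a few more chosen after their values were seen. Members and lists were chosen with earlier results of these data known. Alternatives covered library size, TPM, thresholds, the pseudocount, the filter on low counts, raw counts in ratios, gene length trends and each replicate left out. Promoter windows came from RefSeq.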

Additional observations from a re-analysis of the deposited data

How the results depend on the processing

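The count of expressed members was 24 at 0.5 FPKM, 16 at 2 FPKM and 24 in TPM. It was 19 under TMM sizes and DESeq2 size factors. The number of members that varied was 21, and 9 to 20 when each replicate was left out, lowest without replicate 1 (9), where 10 of the 19 expressed genes lost the call. Without replicate 2, *Itgb5* and *Itga5* lost it. The other settings gave 17 to 21. The median log2 ratio was -0.38, and -0.45 to -0.31 with replicate 3 or 2 left out, -0.26 with a pseudocount of 1 CPM, -0.20 with the length trend removed and -0.17 with length and GC trends removed.

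Ratios between genes depend on length. On raw counts the α partners to *Itgb1* reversed to 1.03 and the laminin α chains to *Lamc1* to 1.07. Raw counts also gave 5.09 for laminin-binding to fibronectin-binding α subunits, 5.87 for *Itgb5* to *Itgav*, 3.10 for *Itgb1* to *Itgb5*, 6.37 for *Itga6* to *Itga5*, 23.8 for *Lama5* to *Lama1*, 3.06 for *Lamb1* to *Lamb2*, 3.32 for *Col4a1* to *Col4a2* and 5.78 for *Nid2* to *Nid1*. The length of the longest coding transcript, chosen after seeing the data, gave 0.856 for the α partners to *Itgb1*, 5.84 for laminin-binding to fibronectin-binding subunits, 12.6 for *Itgb5* to *Itgav*, 6.47 for *Itga6* to *Itga5*, 0.898 for the laminin β chains to *Lamc1*, 2.98 for *Lamb1* to *Lamb2* and 3.24 for *Col4a1* to *Col4a2*. Without replicate 1 the laminin β chains to *Lamc1* went from 0.652 to 0.557.

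No paired analysis was possible because only 1 condition was analysed. Depth limits genes of a few counts, such as *Itgb3*, *Itgam* and *Vtn*, whose levels are imprecise.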
